A study of Mus musculus with 2 samples.

Results

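Tenocyte-like cells, called tenocytes below, were 101 of the 7005 barcodes kept from a quadriceps and a diaphragm library of mouse muscle, and all 101 came from quadriceps. A barcode was kept when it held at least 1000 unique molecular identifiers (UMIs, each marking 1 captured mRNA molecule) and at most 25% of them came from the mitochondrial genome. A kept barcode was a tenocyte when it held at least 3 Fmod UMIs and at least 1 UMI of 2 or more of Chad, Kera, Thbs4 and Cilp2, of which at least 1 had to be Chad or Kera. These 5 genes chose the cells, so their levels are a description and carry no test. Tenocytes were set against fibroblast-like cells of the same library that held at least 1 Pdgfra UMI and at least 50 Dcn UMIs and neither Chad nor Kera. There were 2286 such Pdgfra+ Dcn-high cells in quadriceps and 2007 in diaphragm.

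Tenocytes are the resident cells of tendon, the cord that joins muscle to bone, and they build and repair its parallel bundles of type I collagen. The transcription factors Scx and Mkx direct their formation, and Tnmd, a membrane protein, is a common marker of the differentiated cell. Small leucine-rich proteoglycans such as fibromodulin (Fmod), keratocan (Kera) and chondroadherin (Chad), and the thrombospondins Thbs4 and Comp, bind the collagen and set how its fibrils assemble.

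Each library pooled the muscle of 5 C57BL/6J mice with no treatment or transgene named, 1 library a tissue. The ages of the mice were not given in the sources used here. Muscle was digested with collagenase and dispase, strained and passed over a density medium, and live cells were sorted by light scatter, so muscle fibres were not sampled. Tissue, animals and library cannot be told apart, no replicate error can be given, and every interval below covers counting error only.

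The quadriceps library held 5159 barcodes and the diaphragm library 2499, with medians of 9719 and 11853 UMIs a barcode. After the limits 4635 and 2370 remained, and 5 barcode sequences occurred in both libraries, none of them a tenocyte's. Tenocytes made up 2.18% of the quadriceps cells (exact binomial 95% interval 1.78 to 2.64%). In diaphragm the rule found 0 of 2370 cells, which allows a share of up to 0.127% when 3 cells are taken as the limit of a count of 0 (exact binomial upper limit 0.156%). Chad and Kera separated the tissues: at least 1 Chad UMI was present in 80 quadriceps and 3 diaphragm cells, and at least 1 Kera UMI in 108 and 2. Fmod alone did not, since 207 quadriceps cells (4.47%, 3.89 to 5.10%) and 84 diaphragm cells (3.54%, 2.84 to 4.37%) held 3 or more Fmod UMIs. The cells so counted were not alike in the 2 tissues. Of the 207 quadriceps cells 106 were not tenocytes, and of these 93 held the smooth muscle gene Acta2, 28 Pdgfra and 62 Tnmd. Of the 84 diaphragm cells 13 held Acta2, 79 Pdgfra, 52 Tnmd, 4 Scx and 6 Comp, and none held Chad or Kera. The order turned round for Thbs4, with a UMI in 11.3% of quadriceps and 55.1% of diaphragm cells. Whether tendon cells were missing from the diaphragm itself or from its cell suspension was not tested.

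**Figure D1:**
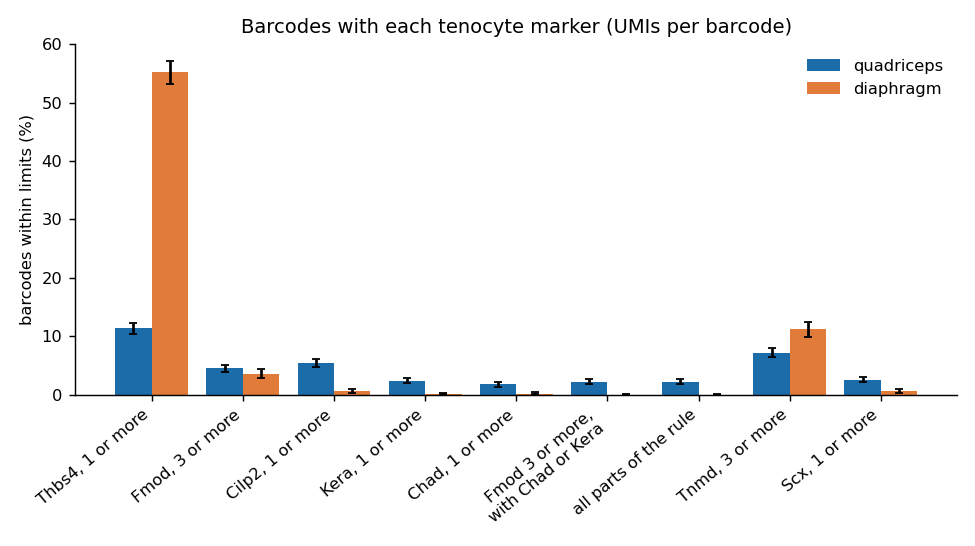
Share of the kept barcodes of each library (vertical axis, %) that held each marker or met the whole rule, with exact binomial 95% intervals as error bars; blue is quadriceps (4635 barcodes) and orange diaphragm (2370). Cells with Chad, with Kera or meeting the rule were almost all in quadriceps, whereas Thbs4 was found in 55.1% of diaphragm cells.

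The marker levels inside the rule were far from its limits for most cells. Fmod ranged from 3 to 542 UMIs a tenocyte with a median of 67, and 1 cell sat at the minimum of 3. Just outside it, 2 cells that met the other markers held 2 Fmod UMIs, 4 held 1 and 8 held none. Of these 14 cells 5 held a Tnmd UMI, 3 a Comp UMI and none a Scx UMI. Chad ranged from 0 to 186 UMIs (median 3), Kera from 0 to 71 (median 7), Thbs4 from 0 to 535 (median 69) and Cilp2 from 0 to 120 (median 7). All 4 of these markers were present in 48 tenocytes, 3 in 45 and 2 in 8. Chad and Kera occurred together in 48 tenocytes, Chad without Kera in 14 and Kera without Chad in 39. Another 12 quadriceps cells with 3 or more Fmod UMIs carried Thbs4 and Cilp2 but neither Chad nor Kera and were left out.

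The label was checked with tendon genes the rule did not use, and these were present. Tnmd, which is needed for normal tendon cell density and collagen fibrils, was found in 98 of the 101 tenocytes, with 0 to 89 UMIs and a median of 10. Tnc, a matrix glycoprotein of loaded tendon and of muscle-tendon junctions, was found in 82, Comp in 74 and Scx in 67. Mkx was found in 31, at 0 to 4 UMIs a cell. Among the 2286 Pdgfra+ Dcn-high cells Tnmd was present in 200, Comp in 220, Tnc in 41, Scx in 19 and Mkx in 19. When every cell was thinned to 1000 UMIs, Tnmd remained in 77.2% of tenocytes, 2.41% of Pdgfra+ Dcn-high cells and 0.301% of the 332 Ptprc+ white blood cells, in which it should be absent. Maturity was not measured, so the cells are not called mature.

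Tenocytes were also found together when the whole quadriceps library was clustered with the 7 genes of the rule and its comparison left out. Of 15 clusters, 1 of 141 cells held 93 of the 101 tenocytes, and at a finer setting 98 fell in 1 of 19 clusters, of 241 cells. Neither cluster was made of tenocytes alone. The cluster of 141 also held 40 Pdgfra+ Dcn-high cells, 27 of them with at least 3 Tnmd UMIs. That of 241 held 122 Pdgfra+ Dcn-high cells, 45 of them with at least 3 Tnmd UMIs. The other genes of a cell vary with those that chose it, so this is a description. Pdgfra, the receptor that defines fibro-adipogenic progenitors (FAPs, the fibroblasts between muscle fibres), was at 65.8 CPM (UMIs of the gene over all UMIs of the class, scaled to 1000000, exact Poisson 95% interval 50.4 to 84.3) in tenocytes, and 76 of the 101 had no Pdgfra UMI. Dcn, the most general proteoglycan of connective tissue, was at 18 to 1288 UMIs a tenocyte, and 84 held 50 or more.

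Defining markers of most other cell types were at 0, but some broader ones were not, and cell quality differed between the classes. No UMI of the B and T cell genes Cd79a, Ms4a1, Cd3e and Cd3d, of the macrophage gene C1qa, of the satellite cell genes Pax7, Myf5, Myod1 and Cdh15, or of the Schwann cell genes Sox10 and Prx was found in tenocytes. The summed lists came to 27 immune, 32 endothelial and 16 muscle fibre UMIs among 942597. The 8-gene satellite cell list reached 876 UMIs (929.3 CPM, against 239.9 CPM in Pdgfra+ Dcn-high cells of quadriceps), with 4 genes at 0, and Chodl and Sdc4 made up 576 and 236 of them. The 8-gene Schwann cell list reached 534 UMIs (566.5 against 676.3 CPM), with 2 genes at 0, and Pmp22, which fibroblasts also express, made up 504. The 9-gene smooth muscle list reached 1519 UMIs (1612 against 1861 CPM). Of these 994 lay in a single barcode and 230 in the next, against a median of 2 a tenocyte. The barcode with 994 held 29470 UMIs, the most of any tenocyte, with 453 of the 746 Acta2 UMIs. Without it Acta2 dropped from 791.4 to 320.9 CPM, against 941.9 in Pdgfra+ Dcn-high cells. Tenocytes were shallower than Pdgfra+ Dcn-high cells, with a median of 7339 against 10766.5 UMIs, and had more mitochondrial RNA, with a median of 7.5% against 3.95%. A share above 5% was measured in 83 tenocytes (82.2%) and in 23.8% of the comparison cells. The part of these differences in the results below was not tested, but counts of genes against comparison cells with at least 5% mitochondrial UMIs are given with the first of them.

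The 250 bases before the start of 3 genes that were high in tenocytes are shown because Scx is a basic helix-loop-helix factor and factors of this class bind E-boxes. The windows come from RefSeq on GRCm38.p6 and are written 5′ to 3′, with each E-box CANNTG in capitals. The motif reads the same on both strands. All 3 genes lie on the plus strand.
Fmod, chr1:134037004-134037253: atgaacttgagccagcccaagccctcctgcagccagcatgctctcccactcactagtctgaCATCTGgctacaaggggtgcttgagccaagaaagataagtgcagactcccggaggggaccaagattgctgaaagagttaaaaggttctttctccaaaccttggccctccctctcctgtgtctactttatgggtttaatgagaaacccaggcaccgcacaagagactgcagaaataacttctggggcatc
Chad, chr11:94564797-94565046: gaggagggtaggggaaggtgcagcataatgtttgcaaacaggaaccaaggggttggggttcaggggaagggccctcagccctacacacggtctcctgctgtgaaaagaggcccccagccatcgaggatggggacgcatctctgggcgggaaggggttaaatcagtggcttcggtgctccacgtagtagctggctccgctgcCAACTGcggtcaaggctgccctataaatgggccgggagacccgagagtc
Col11a1, chr3:114030290-114030539: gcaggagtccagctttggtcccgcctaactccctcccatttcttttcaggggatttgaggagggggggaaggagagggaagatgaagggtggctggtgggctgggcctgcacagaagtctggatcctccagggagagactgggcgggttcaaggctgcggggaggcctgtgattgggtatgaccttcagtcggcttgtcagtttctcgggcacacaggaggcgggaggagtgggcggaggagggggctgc
The Fmod and Chad windows held 1 E-box each and the Col11a1 window none. Of the windows read but not shown, that of Wif1 held 2 and those of Kera and Tnmd 0. A match of these letters is common: 66.2% of the 32851 promoter windows of the table held CANNTG. The share was 54.6% of the 3398 windows found for the genes compared below. It was 59.1% of the 193 windows of those more than 2-fold higher in tenocytes. The form CAGATG or CATCTG, as in Fmod, was in 14.4% of windows. Of the 13 windows found for 11 of the 15 genes with the largest positive fold in tenocytes (listed below), 9 held CANNTG.

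Against Pdgfra+ Dcn-high cells of quadriceps, 219 of 3423 genes (6.4%) were more than 2-fold higher and 372 (10.9%) more than 2-fold lower in tenocytes. Genes counted here had at least 50 CPM in the higher class, and the log2 fold was taken after adding 1 CPM. With 1 library these are sizes, not tests. The median gene sat at a log2 fold of -0.15, and the folds below are read against it. Against the 543 comparison cells with at least 5% mitochondrial UMIs 206 and 362 genes passed. Against the 2007 Pdgfra+ Dcn-high cells of diaphragm, a different library, 242 genes (7.27%) were higher and 373 (11.2%) lower. Tenocytes were also set against the Pdgfra+ Dcn-high cells that held at least 3 Tnmd UMIs, called Tnmd+ below, 83 in quadriceps and 260 in diaphragm. Here 157 genes (4.68%) were higher and 330 (9.84%) lower in quadriceps, and 211 (6.35%) and 313 (9.42%) for the diaphragm cells. The 4 comparisons share the tenocytes. Below, a list or gene is described first against Pdgfra+ Dcn-high cells of quadriceps. Where 3 further values follow, they are those over Pdgfra+ Dcn-high cells of diaphragm, Tnmd+ cells of quadriceps and Tnmd+ cells of diaphragm, in this order.

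**Figure D2:**
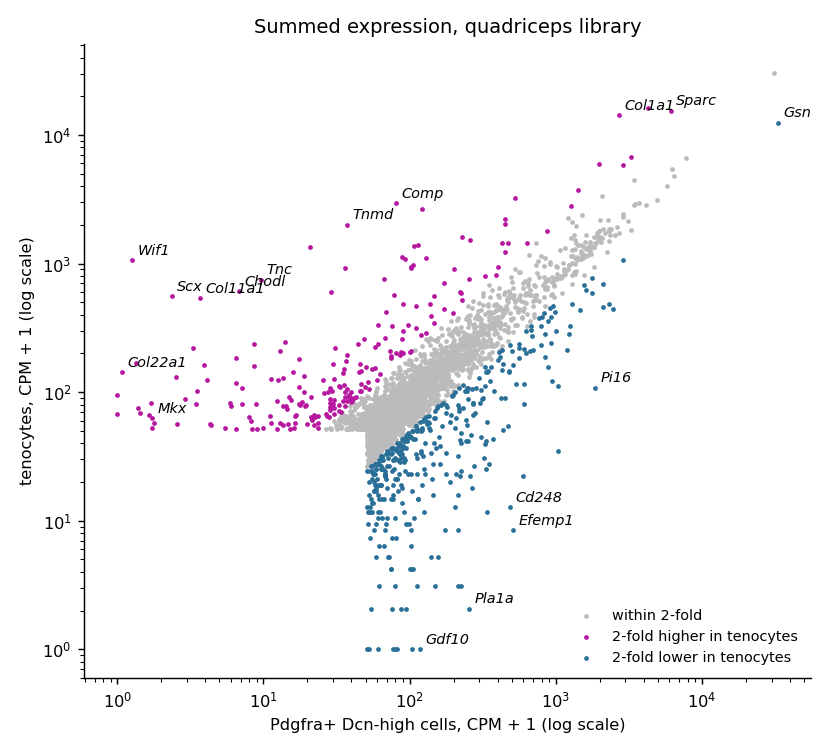
Level of each of 3423 genes in tenocytes (vertical axis) against Pdgfra+ Dcn-high cells of quadriceps (horizontal axis), both as CPM + 1 on log scales; magenta points are more than 2-fold higher and blue points more than 2-fold lower in tenocytes. Wif1, Scx and Col11a1 lie at the far left, near 0 CPM in the comparison cells, and Gdf10 lies at the bottom with no UMI in tenocytes.

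The largest fold among the genes not used by the rule was that of Wif1, a secreted protein that binds Wnt ligands (chromosome 10, 121033960 to 121100650 on GRCm38, plus strand). Tenocytes held 995 Wif1 UMIs, or 1056 CPM (991.0 to 1123), and the Pdgfra+ Dcn-high cells 7, or 0.270 CPM (0.109 to 0.556), a log2 fold of 9.70. The cells did not share it evenly. Wif1 was present in 48 of 101 tenocytes, 1 of which held 270 UMIs, and no Tnmd+ Pdgfra+ Dcn-high cell of either library held any.

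Scx (chromosome 15, 76457452 to 76459458, plus strand) followed with 557.0 CPM (510.3 to 606.7) against 1.35 (0.941 to 1.88), a log2 fold of 7.89. In Tnmd+ Pdgfra+ Dcn-high cells it reached 17.6 CPM in quadriceps and 1.40 CPM in diaphragm, so cells that shared Tnmd with tenocytes had little Scx. Tnmd itself (chromosome X, 133850980 to 133865577, plus strand) was at 2000 CPM (1911 to 2092) in tenocytes and 36.3 CPM in Pdgfra+ Dcn-high cells of quadriceps, a log2 fold of 5.74. In the cells chosen for at least 3 Tnmd UMIs it was at 704.3 CPM in quadriceps and 523.3 CPM in diaphragm. Tenocytes thus had the higher summed level even against cells selected for the gene.

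Col11a1 and Col11a2 were among the leading genes. They encode chains of type XI collagen, a minor collagen that seeds type I fibrils and sets their width. Col11a1 (chromosome 3, 114030540 to 114220718, plus strand) had 537.9 CPM (492.1 to 586.8) against 2.66 CPM, a log2 fold of 7.20, and was found in 78.2% of tenocytes. Col11a2 had 157 UMIs against 9, a log2 fold of 6.96. The remaining leading genes were Col22a1, Chodl, Tnc, Fam159b, Ptx4, Insc, Tnmd, Egfl6, Ntng1, Col13a1 and Gas2, with log2 folds from 7.04 down to 5.38. By fold Col22a1 lay between Col11a1 and Col11a2. It rested on 133 UMIs in tenocytes and 2 in the comparison cells, a ratio of 1828-fold with a counting interval of 496.3 to 15255-fold. Fam159b had 63 UMIs in tenocytes and none in the comparison cells, at least 577.4-fold higher against a floor of 3 UMIs. Each of the 15 leading genes was also more than 2-fold higher against both diaphragm classes and against the Tnmd+ cells of quadriceps.

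**Figure D3:**
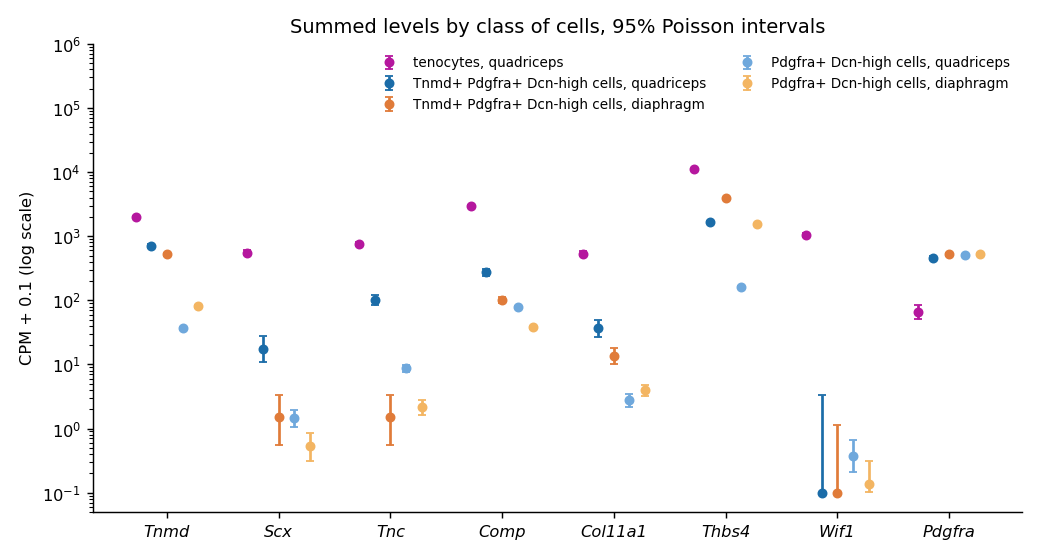
Summed level of 8 genes (vertical axis, CPM + 0.1, log scale) in tenocytes and in 4 classes of Pdgfra+ Dcn-high cells of the 2 libraries, with exact Poisson 95% intervals. Tenocytes are highest for every gene but Pdgfra, where they are lowest at 65.8 CPM, and Wif1 is at 0 in both Tnmd+ classes. Pdgfra chose all 4 comparison classes, Tnmd the Tnmd+ classes, and Thbs4 helped to choose the tenocytes, so the levels of these genes are a description.

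Of the tendon transcription factors, 8 of 14 reached 50 CPM, of which 2 were higher and 3 lower than 2-fold, with a median log2 fold of -0.29 beside -0.15 for all genes. The higher genes were Scx and Mkx, a homeobox factor that keeps tendon cells from other fates, at 61.5 CPM (46.7 to 79.5) against 0.733 CPM and a log2 fold of 5.17. Klf2 and Klf4, zinc-finger factors that are also counted below as immediate early genes, were lower at log2 folds of -1.47 and -1.60. Tcf7l2, a marker of muscle connective tissue fibroblasts, had a log2 fold of -1.45. Egr1 and Zfhx3 were within 2-fold, at -0.65 and 0.71. In the other comparisons 3, 2 and 3 factors were higher and 4, 1 and 3 lower. Scx, Mkx and Tcf7l2 passed 2-fold in the same direction in each, whereas Klf2 was within 2-fold of both Tnmd+ classes (-0.59 and -0.94) and Klf4 of that of quadriceps (-0.96). Egr1 was lower than in the diaphragm classes (-3.17 and -3.01) and Zfhx3 higher (1.43 and 1.40). Six2, Eya1, Eya2, Nfatc4, Egr2 and Sox9 stayed under 50 CPM in both classes, with 5 to 32 UMIs each over all tenocytes.

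Proteoglycans that coat collagen were higher or within 2-fold of Pdgfra+ Dcn-high cells of quadriceps, and the other classes gave fewer differences. Among 8 small leucine-rich proteoglycans counted, with the 4 genes of the rule and its comparison set aside, 5 were higher and none lower, and the median log2 fold was 1.16. Prelp, which ties collagen to basement membrane, had a log2 fold of 2.31 and was found in 100 of the 101 tenocytes. Omd, Ecm2, Aspn and Ogn had log2 folds of 1.66, 1.40, 1.18 and 1.13. Bgn and Podn were within 2-fold at 0.88 and -0.79. Lum, which marks a subset of FAPs, went the other way without passing 2-fold, at 818.0 against 1552 CPM and a log2 fold of -0.92. In the other comparisons 4, 2 and 3 were higher and 2, 1 and 2 lower. Prelp and Ecm2 were higher in each. Aspn was within 2-fold in each (0.27, 0.42 and -0.33), Omd was within 2-fold of both Tnmd+ classes (0.39 and 0.75) and Ogn of that of quadriceps (-0.10). Podn was lower in each (-1.27, -1.11 and -1.22), and Lum was lower than in both diaphragm classes (-1.26 and -1.49). Epyc and Podnl1 had no UMI in tenocytes.

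Of 19 thrombospondins and partners 10 were higher and 1 lower, with a median log2 fold of 1.32. Comp, a pentameric thrombospondin that brings collagen molecules together, had 2939 CPM in tenocytes against 79.3 CPM, a log2 fold of 5.19, with 0 to 294 UMIs a cell. Tnc had 747.9 CPM (693.7 to 805.2) against 8.60 CPM, a log2 fold of 6.29. Thbs1, Matn4, Postn, Thbs2, Cilp and Abi3bp followed, with log2 folds from 3.55 to 2.18. Postn, a matrix protein of loaded connective tissue, came from few cells, since 18 tenocytes (17.8%) held a UMI. Sparc, a collagen-binding protein needed for fibril deposition, was found in every tenocyte, at 15380 against 6150 CPM and a log2 fold of 1.32. The lower gene was Smoc2, a FAP marker, at a log2 fold of -2.25. Thbs3 was within 2-fold at -0.15. Over the other classes 10, 7 and 9 were higher and 2 lower in each. Comp, Tnc, Thbs1, Matn4, Postn and Abi3bp were higher in every comparison. Cilp was within 2-fold of both Tnmd+ classes (0.61 and 0.13), Thbs2 of that of quadriceps (0.62) and Sparc of that of diaphragm (0.87). Fbln1, higher at 1.59 over Pdgfra+ Dcn-high cells of quadriceps, was within 2-fold of the others (-0.48, 0.11 and -0.79).

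Collagens divided by type. Of 12 fibrillar and fibril-associated chains, 7 were higher and 1 lower, with a median log2 fold of 2.16. The chains of type I collagen, the main protein of tendon, were higher: Col1a1 at 14311 against 2712 CPM (log2 fold 2.40) and Col1a2 at a log2 fold of 1.91. Type III collagen, a chain of looser tissue and of repair, was not, with Col3a1 at 6666 against 7736 CPM and a log2 fold of -0.21. Col12a1, which lies on fibril surfaces, was at 921.9 against 35.3 CPM, a log2 fold of 4.67, and its partner in that role Col14a1 was at -0.78. Col5a3 was lower at -2.19. Among 12 other chains 3 were higher and 5 lower. Col13a1, Col8a2 and Col8a1 were the higher ones (5.59, 4.0 and 1.21), while the basement membrane chains Col4a1, Col4a2 and Col4a5 were lower (-1.96, -1.39 and -3.49), as were Col6a6 and Col15a1 (-2.37 and -1.06). Type VI collagen, Col6a1 to Col6a3, was within 2-fold, although Col6a2 was at -1.01 against Tnmd+ cells of diaphragm. In the other comparisons the same 7 fibrillar and fibril-associated chains were higher in each, Col5a3 was within 2-fold of Tnmd+ cells of diaphragm (-0.78) and Col14a1 was lower (-1.25, -1.0 and -1.76). The other chains varied more. Col8a1 changed sign (-0.91, -0.32 and -1.79), Col15a1 was at 0.11 against Tnmd+ cells of quadriceps, Col4a2 was within 2-fold in each (-0.48, -0.86 and -0.36), and Col4a1 and Col8a2 were within 2-fold of Tnmd+ cells of diaphragm (-0.81 and 0.92). Col13a1, Col4a5 and Col6a6 passed 2-fold in the same direction in each.

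Of 21 enzymes and chaperones that process collagen, 5 were higher and 3 lower. Lox, which crosslinks collagen and elastin, had 1395 against 112.6 CPM, a log2 fold of 3.62. P3h2, a prolyl 3-hydroxylase, had 96 UMIs in 101 tenocytes against 65 in 2286 comparison cells, a log2 fold of 4.87. Plod2, a lysyl hydroxylase of the crosslinking sites, Loxl3 and P3h4 had log2 folds of 1.95, 1.64 and 1.14. Loxl1, which crosslinks elastin, was lower at -1.15, with P4ha2 (-1.32) and Bmp1 (-1.23). The general folding genes Serpinh1, P4hb, Ppib, Crtap and Pcolce were within 2-fold, from -0.14 to 0.31. Of the genes counted in the other comparisons, 4, 3 and 5 were higher and 3, 2 and 2 lower. Plod2, P3h2 and Loxl3 were higher in each, and P4ha2 and Loxl1 lower. Lox was within 2-fold of Tnmd+ cells of quadriceps (0.54), P3h4 of all 3 classes (0.79, 0.98 and 0.55) and Bmp1 of both Tnmd+ classes (-0.68 and -0.80).

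Cartilage genes were sparse although Chad is named for cartilage. Of the 22 cartilage and enthesis genes in the files, 2 reached 50 CPM, Col11a2 and Clec11a, and both were higher (6.96 and 2.42). Acan, the large proteoglycan of cartilage, had no UMI, which over 942597 tenocyte UMIs allows up to 3.18 CPM. Col2a1 had 14 UMIs in 9 tenocytes, Sox9 17 UMIs in 3 and Matn3 17 UMIs in 9. Though low, Col2a1 (14.9 against 0.579 CPM) and Matn3 (18.0 against 0.0386 CPM) lay above Pdgfra+ Dcn-high cells of quadriceps. Sox9 did not (18.0 against 29.8 CPM). No UMI of Ihh, Ibsp, Clec3a, Matn1, Col9a1 or Col9a3 was found.

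**Figure D4:**
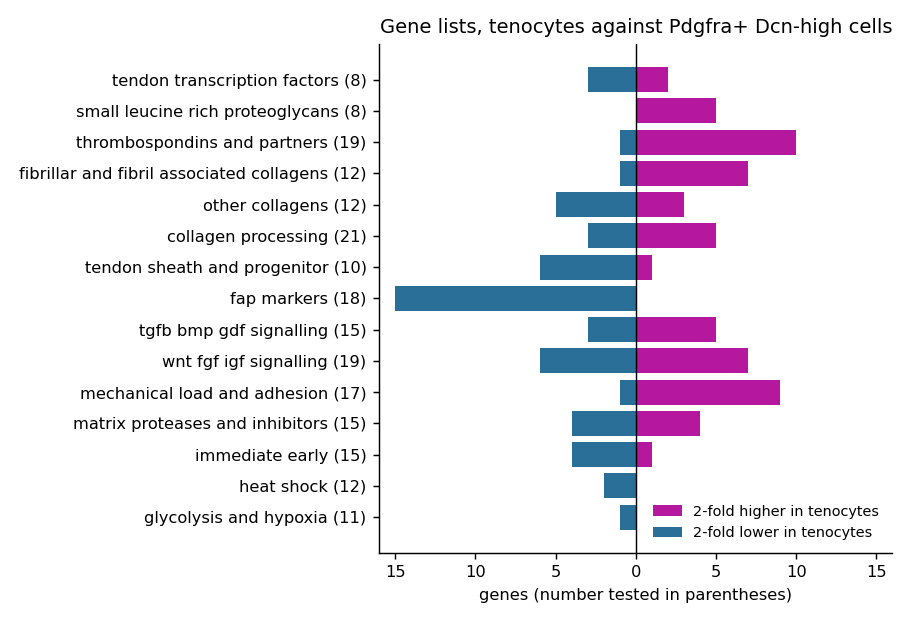
Number of genes more than 2-fold higher (right, magenta) and lower (left, blue) in tenocytes than in Pdgfra+ Dcn-high cells of quadriceps, for each gene list with at least 8 genes counted, whose number stands in parentheses. FAP markers stand at 15 lower and 0 higher, and thrombospondins and partners at 10 higher and 1 lower.

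Most FAP and progenitor markers were lower in tenocytes than in Pdgfra+ Dcn-high cells of quadriceps. Of 18 FAP markers 15 were lower and none higher, with a median log2 fold of -1.78, in a contrast that selected the other cells by Pdgfra. Cd34 had 282.2 against 1236 CPM, a log2 fold of -2.13, and Ly6a (Sca-1) 438.2 against 2448 CPM, a log2 fold of -2.48. Tek, with 3 UMIs in tenocytes, was 32.2-fold lower with a counting interval of 11.0 to 156.3-fold. Hsd11b1, Dpt, Mme, Mfap5 and Fbn1 had log2 folds from -3.24 to -1.77. Apod was within 2-fold at -0.03. In the other comparisons 14 of 17, 10 of 17 and 11 of 16 were lower and 1, 0 and 3 higher. Apod (2.31, -0.98 and 3.78) was higher than in both diaphragm classes, and Cxcl14, at -1.20 over Pdgfra+ Dcn-high cells of quadriceps, was at 0.29, -0.29 and 2.35. Ly6a was within 2-fold of Tnmd+ cells of diaphragm (-0.35) and Fbn1 of both Tnmd+ classes (-0.95 and -0.92). Of 10 genes of the tendon sheath and of fibroblast progenitors 6 were lower: Cd248 (-5.26), Procr (-4.68), Pi16 (-4.10), Cd55 (-3.66), Ly6a and the sheath gene Tppp3 (-2.39). Prg4, the lubricating proteoglycan of tendon surface and joint lining, was the higher one, at 1442 against 470.4 CPM, with a log2 fold of 1.61. Procr stayed under 50 CPM in tenocytes and in both diaphragm classes. Pi16, Cd248, Cd55 and Tppp3 were lower and Prg4 higher in each comparison.

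Over all genes the 15 largest negative folds were those of Pla1a, Gdf10, Ccl2, Lmo2, Krtdap, Stmn4, Emilin2, Efhd1, Efemp1, Dmkn, Il18, Ces1d, Lgi2, Smpd3 and Tnfaip2. Gdf10, a ligand of the TGF-beta family and FAP marker, had no UMI in tenocytes against 116.3 CPM, at least 36.5-fold lower against a floor of 3 UMIs. Ccl2, a monocyte chemokine, was likewise absent, at least 32.4-fold lower. Pla1a, a phospholipase, had 1 UMI, 241.1-fold lower with a counting interval of 43.3 to 9525-fold. Efemp1, an elastic-fibre protein, had 7 UMIs in tenocytes against 13215 and a log2 fold of -5.92. Krtdap, Dmkn and Stmn4 also had no UMI in tenocytes, against 78.6, 59.5 and 75.9 CPM in the comparison cells. After thinning to 1000 UMIs they were found in 4.94%, 3.19% and 6.47% of comparison cells. At such levels most thinned cells would hold no UMI even if all expressed the gene. Low shares alone therefore do not show that the genes mark a subset of FAPs, and whether they do was not tested.

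Secreted Wnt modulators were among the strongest differences in signalling genes. Of 19 Wnt, FGF and IGF genes 7 were higher and 6 lower. Beside Wif1, the antagonists Dkk3, Sfrp2, Sfrp4 and Dkk2 were higher (2.85, 2.80, 1.93 and 1.23), and Sfrp1 was lower (-1.93). Sfrp2, Sfrp4 and Dkk2 were carried by the 17 cells of the third group described below. In the first and second groups Sfrp2 was at 72.0 and 11.8 CPM, Sfrp4 at 4.0 and 0 CPM and Dkk2 at 96.1 and 31.5 CPM. These values lay below the 228.3, 146.5 and 146.6 CPM of Pdgfra+ Dcn-high cells. The ligands Wnt11 and Wnt5a were lower (-3.29 and -1.31). Fgf9 had 117.8 against 5.52 CPM, a log2 fold of 4.19, and Fgf2 and Fgf7 were lower (-1.89 and -1.08). Igfbp7 was higher at 1.37 and Igfbp4 lower at -1.24. Sfrp2 lay in 26.7% of tenocytes only, and its log2 fold against Tnmd+ Pdgfra+ Dcn-high cells of quadriceps was -0.17. Against the same cells Dkk2 was lower (-1.25), and Fgf9 (0.42) and Igfbp4 (-0.64) were within 2-fold. Dkk3 was within 2-fold of Tnmd+ cells of diaphragm (0.37). Wif1, Sfrp4 and Igfbp7 were higher and Sfrp1, Wnt5a and Fgf7 lower in every comparison. Among the groups of tenocytes only the third held Sfrp1 and Fgf7. There they were at 116.6 and 132.5 CPM, above the 91.9 and 57.0 CPM of Pdgfra+ Dcn-high cells of quadriceps.

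Of 15 TGF-beta and BMP genes 5 were higher and 3 lower. The ligand Tgfb3 and its latency protein Ltbp3 had log2 folds of 1.67 and 1.49. The BMP antagonist Chrdl1, the decoy receptor Bambi and the activin chain Inhba had 2.07, 2.01 and 1.23. The activin antagonist Fst had -3.07, Bmp4 -1.21 and Gdf10 no UMI. The receptors Tgfbr1, Tgfbr2 and Tgfbr3 were within 2-fold, at 0.62, -0.78 and 0.59. Over the other classes 4, 2 and 4 were higher and 3, 2 and 2 lower. Tgfb3 (0.40, 0.63 and -0.46) and Bambi (0.91, 0.79 and 0.70) were within 2-fold of all 3 classes, Ltbp3 of both Tnmd+ classes (0.95 and 0.58), and Chrdl1 (0.70) and Bmp4 (-0.62) of that of quadriceps. Inhba was higher and Fst lower in each. The tendon ligands Gdf5, Gdf6 and Gdf7 and the muscle growth inhibitor Mstn had no UMI in tenocytes.

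Of 17 genes linked to load and adhesion 9 were higher and 1 lower than in Pdgfra+ Dcn-high cells of quadriceps, with a median log2 fold of 1.16. The YAP and TAZ targets Ctgf and Cyr61 were at 1525 against 257.0 CPM and at 899.6 against 199.6 CPM, log2 folds of 2.56 and 2.17. Their relatives Wisp1 and Wisp2 had 3.82 and 2.62, and Nov, of the same family, -1.07. Itgbl1, Piezo2, Ncam1, Cdh11 and Wwtr1, which encodes TAZ, had 3.17, 2.53, 2.20, 2.01 and 1.16. Piezo2 is a stretch-gated channel. Over the other classes 7, 8 and 6 were higher and none lower. Wisp1 and Itgbl1 were higher in each. Piezo2 (0.73, 1.07 and -0.52), Cyr61 (0.13, 1.99 and -0.05) and Wwtr1 (0.86, 1.29 and 0.46) were within 2-fold of both diaphragm classes. Ctgf, Cdh11 and Ncam1 were within 2-fold of Tnmd+ cells of diaphragm (0.59, 0.59 and 0.79). Wisp2 was within 2-fold of Tnmd+ cells of quadriceps (-0.36), and Nov changed sign (0.83, 0.51 and 1.27).

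Of 15 proteases and inhibitors 4 were higher and 4 lower. The inhibitors Serpinf1 and Timp1 and the enzymes Htra1 and Ctsk had log2 folds of 1.59, 1.66, 1.28 and 1.07. Serpine2, Adamts5, Htra3 and Adamts1 had -2.91, -2.48, -1.68 and -1.15. Mmp2, the gelatinase of fibroblasts, was within 2-fold at 0.19, and Mmp13 and Mmp9 had no UMI. Timp1 was higher and Htra3 and Adamts1 lower in every comparison. Htra1 was within 2-fold of both diaphragm classes (0.88 and 0.68), Ctsk (0.53 and 0.68) and Serpinf1 (0.80 and 0.72) of both Tnmd+ classes, and Adamts5 and Serpine2 of Tnmd+ cells of diaphragm (-0.88 and -0.62).

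Stress genes are given as counts, beside 6.4% higher and 10.9% lower over all genes. Of 15 immediate early genes 1 was higher (Cyr61) and 4 lower (Klf2, Klf4, Socs3 and Fos), of 12 heat shock genes 2 were lower and of 11 glycolysis and hypoxia genes 1 was lower (Vegfa, -2.44). Against Pdgfra+ Dcn-high cells of diaphragm, another library, 17 of 18 immediate early genes and 10 of 12 heat shock genes were lower. Of 3 satellite cell genes 1, Chodl, was higher. No endothelial, immune or muscle fibre gene reached 50 CPM. The 4 smooth muscle genes counted were within 2-fold. Without the barcode described above that held 994 smooth muscle UMIs, Acta2, Tagln, Myh11 and Des had log2 folds of -1.55, -1.92, -1.66 and -3.61. The next barcode, with 230, was kept in these values. With all tenocytes, Acta2 (5.89, -1.72 and 6.79) and Myh11 (6.29, -1.68 and 6.81) were higher than in both diaphragm classes and lower than in Tnmd+ cells of quadriceps.

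The 101 tenocytes were not uniform. Clustered among themselves without the 7 genes of the rule and its comparison, they formed 3 groups of 43, 41 and 17 cells. The genes of each group are those that defined it or vary with them, were chosen after their values were seen, and carry no test. Across 11 other settings of the clustering, the group of 17 kept 16 or 17 of its cells together in each, whereas the others were split in some. Depth differed between the groups, with medians of 10651, 4313 and 9848 UMIs a cell, and so did the mitochondrial share (7.15%, 8.0% and 5.31%). The part of depth in the groups was not tested.

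The first group, of 43 cells, held most of Wif1 and Chad. Wif1 was found in 36 of its cells at 1779 CPM, against 3 cells and 74.7 CPM in the second group and 9 cells and 461.2 CPM in the third. Chad was found in 38, 23 and 1 cells of the 3 groups, at 2769, 1235 and 42.4 CPM. Comp was found in all 43 cells of the first group, at 4384 CPM, against 1208 and 1442 CPM. Among tenocytes Nov, Il33 (an alarmin of stromal cells), Clu, Thy1 and Serpine2 were also concentrated here, Il33 in 24 cells against 3 and 2. Set against Pdgfra+ Dcn-high cells of quadriceps, Serpine2 was still lower in this group (136.1 against 603.3 CPM). Nov (284.2 against 325.4 CPM) and Thy1 (226.1 against 206.7 CPM) were near their level. Il33 (286.2 against 163.7 CPM) and Clu (396.2 against 136.3 CPM) were above it. Prg4 was at 2223 CPM in the first group and 857.5 and 159.0 CPM in the others.

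The second group, of 41 cells, was led by Chodl, a lectin-like membrane protein, in 39 of its cells, against 12 and 0. Tnfrsf21 was found in 17 of these 41 cells and in none of the other 60. Mgp, an inhibitor of calcification, was at 18815 CPM against 2525 and 1654 CPM, and Sparcl1, Ebf1, Ptx4 and Fbln7 were also higher. Tagln appeared among the leading genes of this group, but the smooth muscle barcode alone carried 363 of its 396 UMIs.

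Within the second group lay all 8 tenocytes with Col22a1, a collagen known from the muscle-tendon junction. They held 133 Col22a1 UMIs, 1 to 37 a cell with a median of 17.5, and the other 93 tenocytes held none. The comparison cells held 2 among 2286. Fam159b was found in 7 of the 8 cells and in no other tenocyte, and Ptx4 in 7, at 944.2 against 122.7 CPM in the other 93. Scx, Tnmd, Thbs4 and Chodl were found in all 8. Wif1 was found in 1 of them, with 2 UMIs, against 47 of the other 93, and Angptl7 was at 27.0 against 3002 CPM. Their depth was 6113 to 29470 UMIs and their mitochondrial share 5.85 to 14.4%. The smooth muscle barcode, with 29470 UMIs, was 1 of them. The other 7 held 112 of the 133 Col22a1 UMIs. The 8 cells were singled out after these values were seen.

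The third group, of 17 cells, nearly lacked Chad and held several matrix and Wnt antagonist genes of fibroblasts. Chad was found in 1 cell, and Kera, which the rule requires of a cell without Chad, in all 17, against 36 of 43 and 34 of 41. Sfrp4 was found in 12, at 2794 CPM, against 2 cells with 2 UMIs in all in the first group and none in the second, and Sfrp2 in 16, at 7755 against 72.0 and 11.8 CPM, although 1 cell held 717 of its 1463 UMIs in the group. Fgf7 and Sfrp1 were found in 11 and 10 of these cells and in none of the other 84. Eln, the elastic-fibre protein, was at 2152 CPM against 142.1 and 19.7 CPM. Col14a1, Dkk2, Lum and Spon1 were likewise highest here, Col14a1 in 15 of 17 cells at 1230 CPM. Col3a1 was at 14822 CPM, against 6263 and 1404. Thbs4 was lowest in this group, at 2677 against 12741 and 13976 CPM. Tnmd did not separate the groups, at 1879, 2160 and 2105 CPM, and Col11a1 did not, at 528.3, 523.2 and 583.1 CPM. FAP genes did not move together. Cd34 and Ly6a were highest in this group (604.3 against 264.1 and 78.7 CPM, and 1076 against 414.2 and 11.8 CPM). The summed level of Pi16 was lowest here (21.2 against 74.0 and 236.0 CPM), but its share of cells was not. It was found in 4 of 17 cells, against 9 of 43 and 6 of 41. In the first and second groups 1 cell each held 25 of 37 and 23 of 60 Pi16 UMIs. Pdgfra was at 79.5 CPM against 82.0 and 23.6 CPM, Dpp4 at 47.7 against 174.1 and 31.5 CPM and Thy1 at 90.1 against 226.1 and 7.87 CPM.

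**Figure D5:**
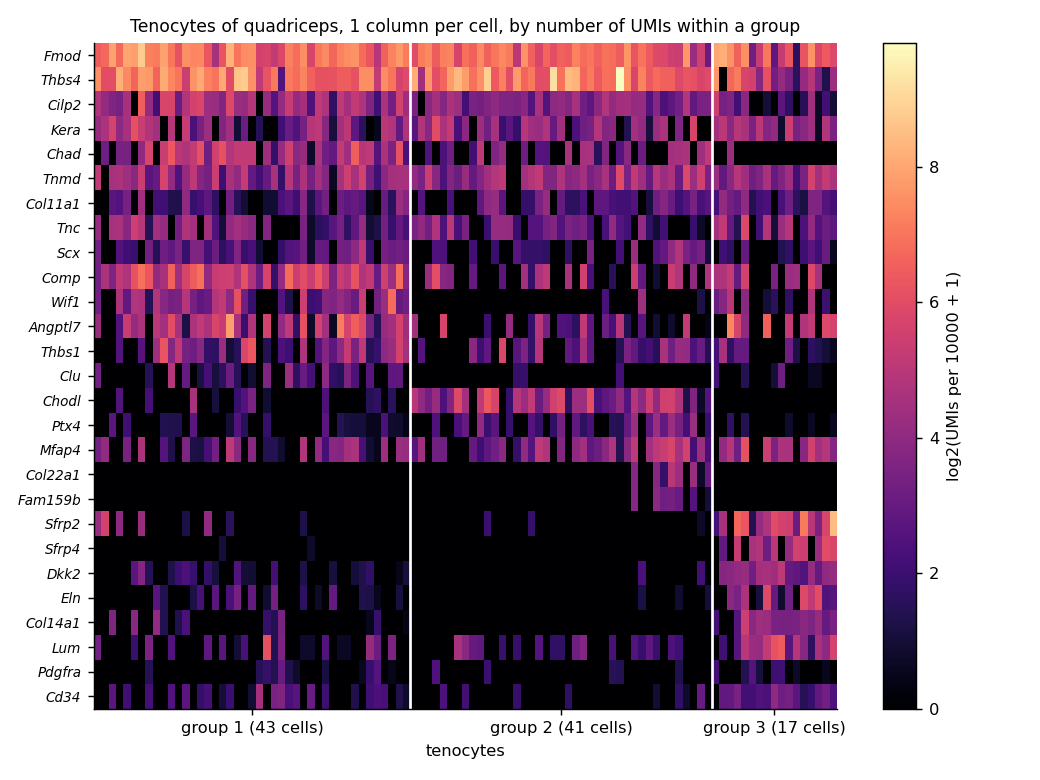
Level of 27 genes (rows) in each of the 101 tenocytes (columns), as log2 of UMIs per 10000 plus 1, with the cells in their 3 groups and in order of depth within each. Wif1 and Comp fill the first group, Chodl the second and Sfrp2, Sfrp4, Dkk2 and Col14a1 the third, and Col22a1 is confined to 8 cells of the second.

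Across the 101 cells, as a description in cells that share 1 library and differ in depth, levels as log2 of UMIs per 10000 plus 1 moved together for Sfrp2 and Sfrp4 (Pearson r 0.70, Spearman rho 0.60), Chodl and Ptx4 (0.58 and 0.52), Wif1 and Comp (0.54 and 0.54) and Chad and Comp (0.53 and 0.57). Wif1 and Chodl went against each other (-0.47 and -0.49). Chad and Kera, either of which could admit a cell, were at -0.29 and -0.27.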

How the data were processed

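Mononuclear cells of quadriceps and of diaphragm were profiled as 1 droplet library each. The authors deposited UMI counts per gene and barcode (27998 genes) made with Cell Ranger 3.0.0 on mm10, per the labels, whose processing notes also name Seurat. The counts were used as deposited, with no ambient RNA correction. The members and gene lists were chosen with earlier results of these data known. For each class the UMIs of its cells were added up and scaled to CPM. A gene was counted when it reached 50 CPM in either class and differed more than 2-fold after adding 1 CPM, leaving out the 7 genes that chose the classes and 13 mt- genes. Named were the 15 largest folds in each direction, up to 6 members of each list in each direction, and all tendon transcription factors and proteoglycans. Further members of the lists were named after their values were seen, and 11 of these past 2-fold were recomputed under the alternatives too. A count in both libraries and a comparison of tenocytes between tissues had been planned, but diaphragm had no tenocytes, so counts rest on quadriceps. Poisson and binomial (Clopper-Pearson) intervals are at 95%. The zero floor was 3 UMIs. Tenocytes were clustered with scanpy 1.11.5 (1000 variable genes, 8 components, 10 neighbours, Leiden resolution 0.5). Scrublet called 95 of 5159 and 3 of 2499 barcodes doublets, 2 of them tenocytes. They were kept in the main values. Counting was tested on simulated data. Python 3.11.15, scipy 1.17.1 and pandas 2.3.3 were used. Gene positions are from GENCODE M21 (GRCm38) and promoter windows from RefSeq. Symbols are the files' own. Some genes are not reported here.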

Additional observations from a re-analysis of the deposited data

Results flagged for a closer look

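In quadriceps 10 barcodes met the Fmod and marker minimum of the tenocyte rule but lay outside the limits on UMIs or mitochondrial share, and the comparisons above do not use them. The limit that a count of 0 allows is 3. Of the 10, 5 had 646 to 803 UMIs and 5 had a mitochondrial share of 31.7 to 68.2%. Tnmd was found in 8 of the 10, Comp in 7, Wif1 and Chodl in 6 each and Scx in 4, and Pdgfra and Sfrp4 had no UMI among their 13983. Diaphragm had no such barcode.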

How the results depend on the processing

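No paired analysis was possible because the labels carry no replicate numbers and each tissue is 1 library. Of 20 alternatives 5 were chosen after seeing the data. Under the 9 that change which cells count as tenocytes and were counted per library, the number in quadriceps stayed within 1.5 times of 101 except with at most 5% mitochondrial UMIs (18 cells) and with cells thinned to 5000 UMIs (61, of the 67 that had so many), where fewer cells remained by construction. In diaphragm it was 0 in each of the 9. The counts of 219 higher and 372 lower genes moved past 1.5 times with a floor of 20 CPM (373 and 675), with no floor (1121 and 1887), where more genes were counted, and, for higher genes, against 235 Tnmd-high cells chosen without regard to Pdgfra (527). Median-of-ratios scaling gave 237 and 307 genes.

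Of 126 named genes past 2-fold, 97 kept their direction under all 20 alternatives and 56 stayed past 2-fold. Those that reversed had these log2 folds, and the cause was not tested except where stated. With at most 5% mitochondrial UMIs, in 18 cells, Fgf7 was at 0.18 and Timp1 at -0.79. Col22a1 was at -0.13 there because that limit left out all 8 tenocytes that held it. Their mitochondrial shares were 5.85 to 14.4%. Against Tnmd-high cells Col15a1 was at 1.79, Nov at 2.07, Bmp4 at 0.99, Bmp1 at 0.77, Fbn1 at 0.67, Htra3 at 0.60, Wnt5a at 0.54, Cd34 at 0.44, Col5a3 at 0.26, Loxl1 at 0.23, Klf4 at 0.20, Mfap5 at 0.18, Klf2 at 0.12, Socs3 at 0.084 and Tgfb3 at -0.55. Against Pdgfra+ Dcn-high cells of diaphragm Nov was at 0.83, Fbln1 at -0.48 and Col8a1 at -0.91. Against Tnmd+ Pdgfra+ Dcn-high cells of quadriceps Nov was at 0.51, Col15a1 at 0.11, Socs3 at 0.044, Ogn at -0.10, Sfrp2 at -0.17, Col8a1 at -0.32, Wisp2 at -0.36 and Dkk2 at -1.25. Against Tnmd+ Pdgfra+ Dcn-high cells of diaphragm Nov was at 1.27, Procr at 0.95, Mme at 0.47, Cyr61 at -0.050, Aspn at -0.33, Tgfb3 at -0.46, Piezo2 at -0.52, Fbln1 at -0.79 and Col8a1 at -1.79. The planned comparison of tenocytes between tissues gave no value. Depth limits low genes: over all tenocytes 3 UMIs are 3.18 CPM.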
